A study of Arabidopsis thaliana with 48 samples.

Results

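The 10 genes described here encode the Rubisco small subunits (RBCS1A, RBCS1B, RBCS2B and RBCS3B), Rubisco activase (RCA), the chloroplast glyceraldehyde-3-phosphate dehydrogenase subunits (GAPA1, GAPA2 and GAPB), phosphoribulokinase (PRK) and sedoheptulose-bisphosphatase (SBPASE) of Arabidopsis thaliana. They were chosen by gene identifier from the 33553 genes in the table of transcript levels, and all 10 were found. RNA was taken from 12-day-old seedlings of acc1-5, a mutant allele of the gene for cytosolic acetyl-CoA carboxylase, and of wild type (WT). Both genotypes were of the Col-0 ecotype and were grown on plates with 16 h of light and 8 h of dark. Each genotype has 3 RNA libraries, and nothing in the labels tells whether they are of different seedling batches or repeats of a single one. A note on spraying with DMSO or estradiol stands on every sample, chromatin and RNA alike, so whether the RNA seedlings were sprayed is unclear. How acc1-5 affects the enzyme is not given in the labels. The other 42 samples, of chromatin, were not analysed here.

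Rubisco fixes carbon dioxide onto ribulose bisphosphate in the chloroplast and starts the Calvin cycle. Its small subunits are encoded by a nuclear gene family, while the large subunit is encoded in the plastid genome. The steps that follow use ATP and NADPH to reduce the fixed carbon to triose phosphate, and most of that triose phosphate is returned to ribulose bisphosphate. In leaves the mRNAs of these enzymes are among the most abundant, are induced by light and belong to green cells.

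Levels are given as FPKM, by definition fragments counted per length of transcript and scaled to the mapped fragments of the library. Which scaling of libraries the authors' programs applied was not checked. There is 1 value with a lower and an upper confidence bound per genotype, all set by the authors. No value of a single library was used, so no spread between libraries stands beside these levels, and sequencing depth is unknown. A gene was represented by its transcript of highest mean FPKM. It was called lower or higher where the q-value (p-value adjusted over all tested transcripts) in the authors' deposited table was under 0.05. By this rule 9.04% of the 20509 tested genes were lower and 10.9% were higher in acc1-5. The smallest p-value of the authors' Cuffdiff test was 5e-05, shared by 1693 of the tested genes. Its q-value is 0.000746, so this q is a floor and does not rank the genes that have it.

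All 10 genes had lower levels in acc1-5 seedlings, and 6 of them fell by the authors' test. The levels in acc1-5 lay between 41.0% and 53.5% of the WT levels, with a median log2 ratio of -0.998 (range -1.29 to -0.90). Over all tested genes the median log2 ratio was -0.01, with quartiles of -0.30 and 0.30, and 50.7% had the lower level in acc1-5. The 6 that fell were RBCS1B, GAPA1, GAPA2, GAPB, PRK and SBPASE, and the 4 that were not called were RBCS1A, RBCS2B, RBCS3B and RCA. None rose in the authors' deposited table, and at an unadjusted p under 0.05 the authors' Cuffdiff test gave 7 lower and 0 higher, where 14.6% of all tested genes were lower and 15.7% higher by that rule. In RNA of seedlings with all their cell types, fewer green cells and less of these mRNAs per green cell cannot be told apart.

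**Figure D1:**
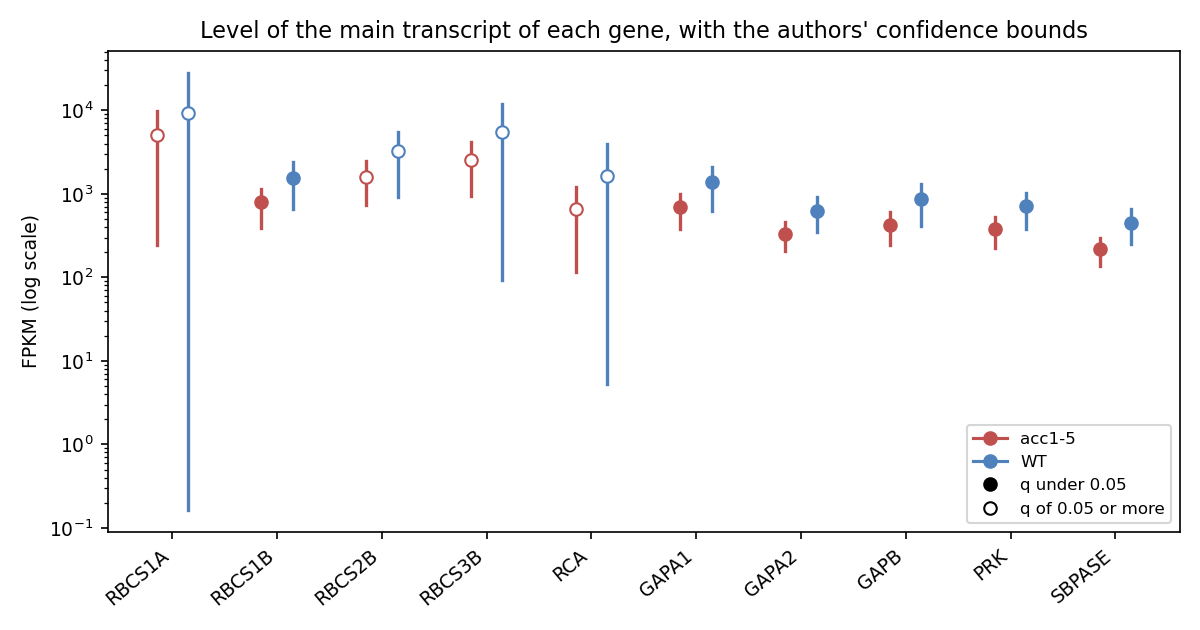
FPKM (log scale) of the main transcript of each gene in acc1-5 (red, left of each pair) and WT (blue, right), with vertical lines for the authors' confidence bounds; filled points mark genes with q under 0.05. Every red point lies below its blue partner, and the bounds are widest for RBCS1A, RBCS3B and RCA, whose q-values were above 0.05.

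Calls of lower levels were more frequent among highly expressed genes, against which the 6 of 10 is to be read. Among the 354 tested genes with a mean FPKM of at least 334, the level of SBPASE, the lowest of the 10, 26.0% were called lower in acc1-5. The median log2 ratio of these 354 genes was -0.17, and 58.8% of them had the lower level in acc1-5. A log2 ratio at or below the -0.90 of RBCS1A was found for 44 of the 354, the 10 genes included, and for 5.82% of all tested genes. This set was chosen after the data had been examined.

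The small subunit surrounds the ends of the catalytic core of Rubisco and is needed for the enzyme's assembly and full activity. RBCS1A (AT1G67090, chromosome 1, 25048158 to 25049424 on TAIR10) had 5028 FPKM in acc1-5 (bounds 245 to 9817) and 9403 FPKM in WT (0.165 to 28301). By level it ranked 3 among all listed transcripts in acc1-5 and 1 in WT. Its log2 ratio was -0.90, and q was 0.628 in the authors' deposited table. RBCS1A was thus at 53.5% of its WT level with bounds so wide that those of WT enclosed those of acc1-5.

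RBCS3B (AT5G38410) had 2553 FPKM in acc1-5 (943 to 4163) and 5500.1 FPKM in WT (93.5 to 11759.8), a log2 ratio of -1.11 with q = 0.245 in the authors' deposited table. For RBCS2B (AT5G38420) the level was 1606 FPKM in acc1-5 (727 to 2468) and 3221 FPKM in WT (913 to 5514), with q = 0.120 and a log2 ratio of -1.004 in the authors' deposited table. RBCS1B (AT5G38430), the least abundant of the 4, had 799 FPKM in acc1-5 (388 to 1144) and 1531 FPKM in WT (663 to 2390). Its log2 ratio was -0.94, and it was the only small subunit gene called, at q = 0.0256 in the authors' deposited table. The log2 ratio of RBCS1B thus lay inside the range of the 3 that were not called. Whether the 4 genes differ from each other in their change was not tested.

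RBCS3B, RBCS2B and RBCS1B lie next to each other on chromosome 5, at 15377173 to 15378416, 15380945 to 15382035 and 15384117 to 15385247 on TAIR10. The 3 loci span 8075 bases, with 2528 and 2081 bases between them. Of the nearest 2 loci on either side, AT5G38396 was at 0.0122 FPKM in acc1-5 and 0.0237 FPKM in WT, and AT5G38400, AT5G38435 and AT5G38437 were listed at 0 in both genotypes. RBCS1A, on chromosome 1, had a log2 ratio of -0.90, against -1.11, -1.004 and -0.94 for the 3 in the order of their positions.

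The 4 small subunit genes are close copies, and how reads shared between them were assigned is not given in the sources used here. If shared reads were split among the 4 genes, their sum depends less on the split than each level does. If shared reads were left out, the sum would lack them as well. Summed over all listed transcripts, the 4 genes had 10014 FPKM in acc1-5 and 19747 FPKM in WT, so the acc1-5 sum was 50.7% of the WT sum. This was 1.18% of the FPKM of all nuclear transcripts in acc1-5 and 2.17% in WT. The make-up of the sum was close in both genotypes: RBCS1A gave 50.2% in acc1-5 and 47.6% in WT. RBCS3B gave 25.8% in acc1-5 and 28.3% in WT. RBCS2B gave 16.0% in acc1-5 and 16.3% in WT, and RBCS1B 7.98% in acc1-5 and 7.75% in WT. The order of the 4 genes by level was the same in both genotypes. All 133 plastid transcripts in the table were listed at 0 in both genotypes, so the plastid-encoded large subunit could not be set beside the small ones.

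**Figure D2:**
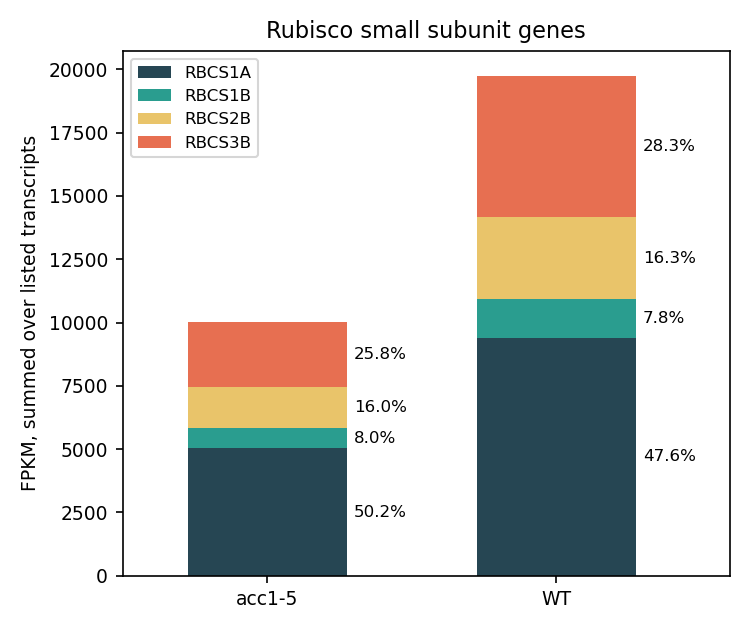
Summed FPKM of the 4 Rubisco small subunit genes in acc1-5 (left bar) and WT (right bar), stacked by gene, with each gene's share of its bar. The acc1-5 bar reaches 10014 FPKM and the WT bar 19747 FPKM, while RBCS1A makes up 50.2% of the acc1-5 bar and 47.6% of the WT bar.

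Rubisco activase, an ATPase that frees Rubisco's active site of bound sugar phosphates, had the log2 ratio farthest from 0 among the 10 genes and was not called. The RCA locus (AT2G39730, chromosome 2, 16570746 to 16573548) carries 3 listed transcripts. AT2G39730.1 had 664 FPKM in acc1-5 (115 to 1213) and 1619 FPKM in WT (5.33 to 3915), with a log2 ratio of -1.29 and q = 0.275 in the authors' deposited table. AT2G39730.2 had 589.5 FPKM in acc1-5 (70.9 to 1108) and 1445 FPKM in WT (2.76 to 3579), with a log2 ratio of -1.29 and q = 0.307 in the authors' deposited table. The remaining form, AT2G39730.3, had 10.7 FPKM in acc1-5 and 20.6 FPKM in WT. RCA is known to be made in a long and a short form by alternative splicing. The balance of the listed forms was nearly the same in both genotypes, with 52.5% of the RCA sum in the first form in acc1-5 and 52.5% in WT. The second form held 46.6% in acc1-5 and 46.8% in WT. Summed over its forms, RCA had 1264 FPKM in acc1-5 and 3085 FPKM in WT, a sum that the authors' transcript test did not test.

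The chloroplast glyceraldehyde-3-phosphate dehydrogenase, which uses NADPH in the reducing step of the cycle, is built of A and B subunits. All 3 genes of these subunits fell in acc1-5. GAPA1 (AT3G26650, chromosome 3, 9795071 to 9797045) had 693 FPKM in acc1-5 (375 to 1009) and 1376 FPKM in WT (617 to 2125), with a log2 ratio of -0.99 and q = 0.0319 in the authors' deposited table. GAPA2 (AT1G12900, chromosome 1, 4392450 to 4394400), the second A subunit gene, had 334 FPKM in acc1-5 (207 to 461) and 630.1 FPKM in WT (345 to 915). Its log2 ratio was -0.92, and q was 0.00486 in the authors' deposited table. GAPB (AT1G42970, chromosome 1, 16127381 to 16129843) encodes the B subunit, whose extra C-terminal stretch makes the enzyme responsive to light through thioredoxin. GAPB had 424 FPKM in acc1-5 (246 to 599) and 863 FPKM in WT (409 to 1314), with a log2 ratio of -1.03 and q = 0.0159 in the authors' deposited table. The 3 subunit genes were thus at 50.3%, 53.0% and 49.1% of their WT levels, in the order GAPA1, GAPA2, GAPB.

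PRK and SBPASE act in the part of the cycle that restores ribulose bisphosphate, and both enzymes are switched on in the light by thioredoxin. PRK (AT1G32060, chromosome 1, 11532533 to 11534639), which makes ribulose bisphosphate itself, had 377 FPKM in acc1-5 (225 to 528) and 708 FPKM in WT (382 to 1029). It fell with a log2 ratio of -0.91 and q = 0.00570 in the authors' deposited table. SBPASE (AT3G55800, chromosome 3, 20709386 to 20711640), which removes a phosphate from sedoheptulose bisphosphate, had 216 FPKM in acc1-5 (136 to 294) and 452 FPKM in WT (251 to 652). Its log2 ratio was -1.07, and its q of 0.00138 was the lowest of the 10 in the authors' deposited table. SBPASE, PRK and GAPA2 were also the 3 of the 10 with an acc1-5 level under the lower bound of WT.

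Whether one of the 10 genes was called went with the width of its bounds and not with the size of its ratio. The bounds and the q-values both came from the authors' processing and are not independent. With ratios this close together, the link describes the calls and is not separate evidence. In WT the half-width of the bounds was 44.4% to 56.4% of the level for the 6 that fell and 71.4% to 150% for the 4 that were not called. The log2 ratios ran from -1.07 to -0.91 in the first set and from -1.29 to -0.90 in the second. The median half-width over the 354 genes of at least this level was 40.6% in WT and 40.2% in acc1-5. Among the 344 other tested genes of at least this level, 1 of the 7 with a WT half-width of at least 70% was called in either direction, as were 117 of the 337 with a smaller one (34.7%). The cut of 70% was not planned. It lies in the gap between the half-widths of the called and uncalled genes of the 10, and it leaves only 7 other genes on its upper side. Over all tested genes the shares were close: 20.1% were called in either direction where the WT half-width was at least 70%, and 19.8% where it was smaller. For each of the 10 genes the bounds of acc1-5 and WT overlapped, while bounds apart with the lower level in acc1-5 were found for 1.63% of tested genes. The WT level lay above the upper bound of acc1-5 in 9 of the 10, all but RBCS1A. The p-value behind RBCS2B was 0.0256 in the authors' deposited table, which did not pass after adjustment.

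**Figure D3:**
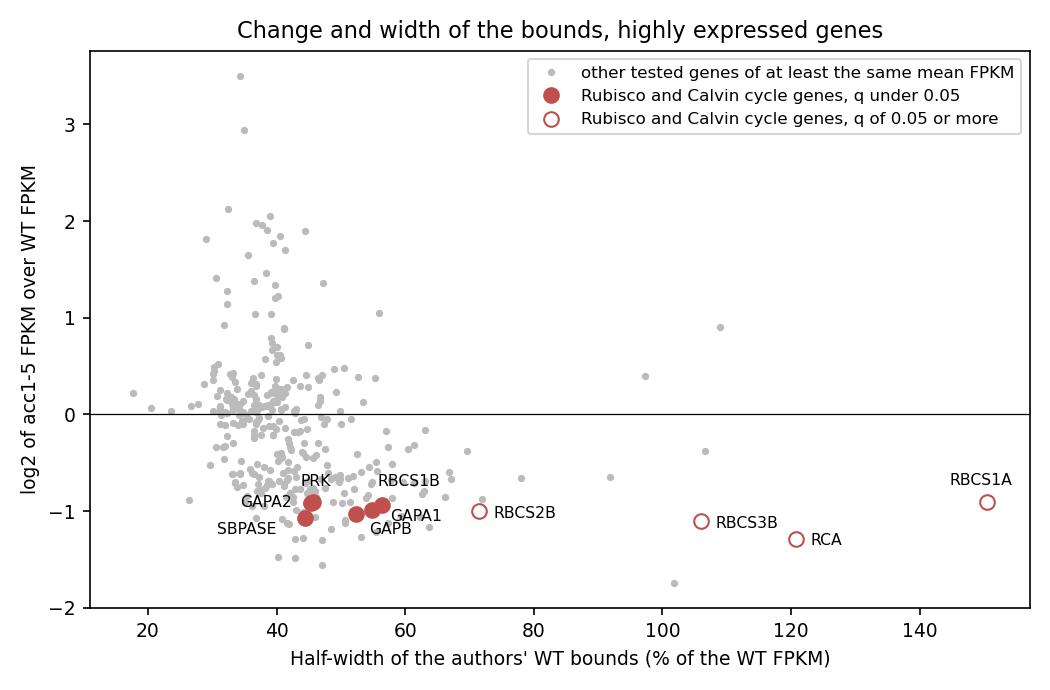
The log2 ratio of acc1-5 over WT against the half-width of the WT bounds, in percent of the WT FPKM, for the 10 Rubisco and Calvin cycle genes (red; filled where q was under 0.05) and the other tested genes of at least the same mean FPKM (grey). The red points form a band between -1.29 and -0.90, and the 4 open points lie to the right, from 71.4% to 150%.

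Apart from the second form of RCA, the other forms listed at these loci were minor. The 10 genes had 19 listed transcripts, of which 14 were tested and the same 6 main forms were called. GAPA2 had 5 listed forms, with 99.8% of its FPKM in the main form in acc1-5 and 99.5% in WT. RBCS3B had 98.9% in its main form in acc1-5 and 98.3% in WT, and its second form stood at 27.1 FPKM in acc1-5 and 92.2 FPKM in WT (q = 0.943 in the authors' deposited table). Each of the 10 loci held a single gene in the tables. Whether genes listed under other loci overlap them was not examined for all 10.

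Stricter or other rules changed the count of calls more than the levels. With q under 0.01, 3 of the 10 fell (GAPA2, PRK and SBPASE), where 5.70% of tested genes were lower and 7.71% higher. When the authors' p-values were adjusted over main transcripts only, 9.74% of tested genes were lower, and with adjustment over transcripts of a mean of at least 1 FPKM it was 9.71% of the 19156 genes left. Under both rules the same 6 genes fell.

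The remaining enzymes of the cycle, with the regulatory CP12 proteins that bind GAPDH and PRK, were lower in most but not all cases. Of 15 genes in this list 13 were tested, and 7 fell, 2 rose and 4 were not called, with a median log2 ratio of -0.55. Over all tested genes 9.04% were lower and 10.9% higher. The chloroplast aldolase genes FBA1 and FBA2 fell, FBA1 to 207 FPKM in acc1-5 against 438 FPKM in WT (q = 0.00138 in the authors' deposited table). FBA2 had 566 FPKM in acc1-5 and 1027 FPKM in WT, with q = 0.0367 in the authors' deposited table. FBA3, also a plastid aldolase gene, rose instead, with 238 FPKM in acc1-5 (148 to 327) and 130.2 FPKM in WT (84.4 to 175), at q = 0.000746 in the authors' deposited table.

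HCEF1, the chloroplast fructose-bisphosphatase gene, fell to 146 FPKM in acc1-5 against 280.4 FPKM in WT, and RPE, for the pentose-phosphate epimerase, to 214 FPKM in acc1-5 against 392 FPKM in WT. CP12-1 had 1171 FPKM in acc1-5 and 1887 FPKM in WT, and CP12-2 had 337 FPKM in acc1-5 and 653 FPKM in WT. Their q-values, in this order, were 0.00195, 0.00443, 0.0248 and 0.000746 in the authors' deposited table. EMB3119 was the seventh gene that fell, with a log2 ratio of -0.55. CP12-3, expressed far less, had 37.3 FPKM in acc1-5 and 33.5 FPKM in WT (q = 0.786 in the authors' deposited table).

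Of the transketolase genes only TKL2 was called. TKL1, the more abundant one, had 469 FPKM in acc1-5 (234 to 704) and 669 FPKM in WT (283 to 1057), with q = 0.369 in the authors' deposited table. TKL2 rose to 39.3 FPKM in acc1-5 (26.5 to 51.9) against 13.2 FPKM in WT (8.97 to 17.4), with q = 0.000746 in the authors' deposited table. Of the rest, the plastid triose-phosphate isomerase gene PDTPI had a log2 ratio of -0.32 and AT1G56190 of -0.35, and neither was called. PGK1, for chloroplast phosphoglycerate kinase, had 425 FPKM in acc1-5 and 686 FPKM in WT, but it was not tested by the authors' program and shares its locus with another gene. AT5G64380 was not tested either and had a log2 ratio of -0.85.

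Plants also hold forms of some of these enzymes outside the cycle, in the cytosol and in plastids that are not green. Of 15 such genes, all tested, 6 rose, 3 fell and 6 were not called, with a median log2 ratio of 0.26. Over all tested genes 10.9% were higher and 9.04% lower. GAPC1, a cytosolic GAPDH gene of glycolysis, rose to 637 FPKM in acc1-5 (357 to 917) against 367 FPKM in WT (222 to 510.1), with q = 0.0175 in the authors' deposited table. GAPC2, the more abundant cytosolic gene, had 1142 FPKM in acc1-5 and 881 FPKM in WT (q = 0.517 in the authors' deposited table). GAPCP1, for a plastid GAPDH of glycolysis, rose to 55.4 FPKM in acc1-5 against 17.2 FPKM in WT. The largest falls in this list were of the aldolase genes FBA5, with 67.9 FPKM in acc1-5 and 251 FPKM in WT, and FBA7, with 12.8 FPKM in acc1-5 and 25.5 FPKM in WT. For these last 3 genes q was 0.000746 in the authors' deposited table.

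**Figure D4:**
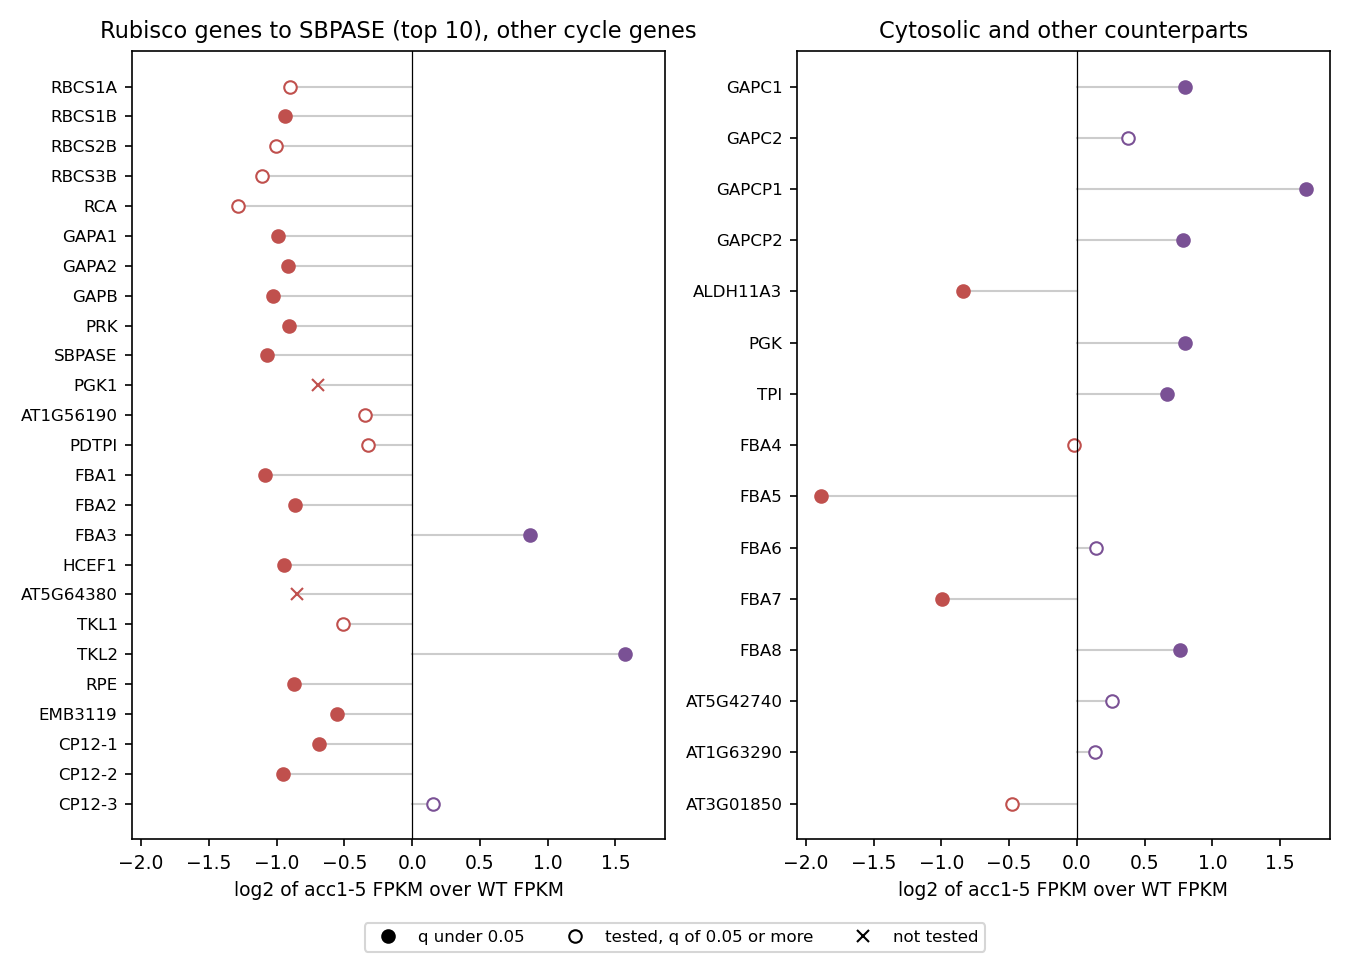
The log2 ratio of acc1-5 over WT for the 10 genes and the other genes of the cycle list (left panel) and for their counterparts outside the cycle (right panel); filled points had q under 0.05, open points 0.05 or more, and crosses were not tested; red is lower and purple higher in acc1-5. All 10 genes at the top left lie between -1.29 and -0.90, while GAPC1 and GAPCP1 lie above 0.

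Summing the FPKM of the genes of each enzyme shows how the balance of chloroplast and cytosolic forms differed, in sums chosen after the values were seen and not tested. GAPA1, GAPA2 and GAPB together had 1451 FPKM in acc1-5 and 2873 FPKM in WT. GAPC1 and GAPC2 together had 1784 FPKM in acc1-5 and 1252 FPKM in WT. The chloroplast sum was thus 0.813 times the cytosolic sum in acc1-5 and 2.295 times in WT. For triose-phosphate isomerase the ratio of the plastid gene PDTPI to the cytosolic gene TPI (AT3G55440) was 0.471 in acc1-5 and 0.935 in WT. For aldolase the FBA1 to FBA3 sum was 1.78 times the FBA4 to FBA8 sum in acc1-5 and 2.38 times in WT.

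Rubisco needs chaperonins and assembly factors to fold and join its subunits. Of 18 genes in this list 16 were tested, and 8 fell, 0 rose and 8 were not called, with a median log2 ratio of -0.66 (10 lower and 1 higher at an unadjusted p under 0.05 by the authors' Cuffdiff test, beside 14.6% and 15.7% of all tested genes). CPN60B, for a subunit of the chloroplast chaperonin, fell to 202 FPKM in acc1-5 against 321 FPKM in WT, with q = 0.0388 in the authors' deposited table. CPN20, for its co-chaperonin, had 462 FPKM in acc1-5 and 566 FPKM in WT (q = 0.570 in the authors' deposited table). Among the genes called in this list, the largest falls were of AT3G48420, AT5G51110 and AT3G47650, at 52.9%, 54.0% and 57.4% of their WT levels.

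Photorespiration recycles the product that Rubisco forms when it reacts with oxygen. Of 17 genes in this list 16 were tested, and 13 fell, 1 rose and 2 were not called. Over all tested genes 9.04% were lower and 10.9% higher. The median log2 ratio of the list was -0.9999, beside -0.998 for the 10 genes. It counts AT5G36790, named after its values were seen, with 0.224 FPKM in acc1-5 and 0.501 FPKM in WT. With a gene so near the floor counted, the closeness of the 2 medians carries no weight. CAT2, the catalase gene that clears the peroxide of this pathway, fell to 102 FPKM in acc1-5 against 356 FPKM in WT. LrgB (AT1G32080), a transporter gene of the chloroplast envelope, fell to 66.5 FPKM in acc1-5 against 168 FPKM in WT, and GOX1, a glycolate oxidase gene, to 382 FPKM in acc1-5 against 889.7 FPKM in WT. The aminotransferase genes GGT1 and AGT fell as well, GGT1 to 478 FPKM in acc1-5 against 997 FPKM in WT and AGT to 422 FPKM in acc1-5 against 872 FPKM in WT. AT2G35120, named after its values were seen, rose to 94.3 FPKM in acc1-5 against 50.1 FPKM in WT. Apart from AT5G36790, at q = 0.382, the q-values of these genes lay between 0.000746 and 0.0206 in the authors' deposited table.

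Thioredoxins and their reductases pass on the light signal to GAPDH, PRK and SBPASE. All 9 genes of this list were tested and had lower levels in acc1-5, and 6 fell and 0 rose, with a median log2 ratio of -0.52 (9 lower and 0 higher at an unadjusted p under 0.05 by the authors' Cuffdiff test, beside 14.6% and 15.7% of all tested genes). TRXF2, for an f-type thioredoxin, fell to 54.4 FPKM in acc1-5 against 96.8 FPKM in WT, and the m-type genes THM1 (AT1G03680) and TRX-M4 to 166 and 257 FPKM in acc1-5 against 270.1 and 392 FPKM in WT. FTRA2, for a subunit of ferredoxin-thioredoxin reductase, fell to 89.1 FPKM in acc1-5 against 137 FPKM in WT. TRXm2 had 312 FPKM in acc1-5 and 435 FPKM in WT and was not called (q = 0.0846 in the authors' deposited table).

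Most markers of root cells were higher in acc1-5 in the same tables. All 8 root hair markers rose, with a median log2 ratio of 2.94, and their summed level was 143 FPKM in acc1-5 and 17.3 FPKM in WT. EXPA7, a root hair expansin gene, had 20.1 FPKM in acc1-5 and 1.44 FPKM in WT, and MRH6 had 8.09 FPKM in acc1-5 and 0.765 FPKM in WT. The cell wall protein genes PRP3 and PRP1 had 51.5 and 27.5 FPKM in acc1-5 and 5.76 and 4.45 FPKM in WT. Of 15 markers of the root endodermis and its suberin 14 were tested, and 11 rose, 0 fell and 3 were not called (12 higher and 0 lower at an unadjusted p under 0.05 by the authors' Cuffdiff test, beside 15.7% and 14.6% of all tested genes). The suberin genes CYP86A1, CYP86B1 and ASFT had 14.8, 4.88 and 21.9 FPKM in acc1-5 and 3.01, 1.06 and 6.57 FPKM in WT, and the regulator gene MYB36 had 5.52 FPKM in acc1-5 and 1.22 FPKM in WT. SCR, a regulator gene of endodermis identity and among the most abundant of the list, had 16.7 FPKM in acc1-5 and 17.3 FPKM in WT, with q = 0.945 in the authors' deposited table. The summed level of the endodermis list was 109 FPKM in acc1-5 and 41.9 FPKM in WT, and no marker of these lists was at 0 in either genotype. Light-harvesting genes, which mark green cells, had a summed level in acc1-5 of 63.8% of that in WT, and their median log2 ratio was -0.66. Guard cell markers had a summed level in acc1-5 of 87.2% of that in WT and a median log2 ratio of -0.16. Of these 6 markers 1 fell and 5 were not called. The part that the proportion of root to shoot had in the lower levels of the 10 genes was not tested.

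**Figure D5:**
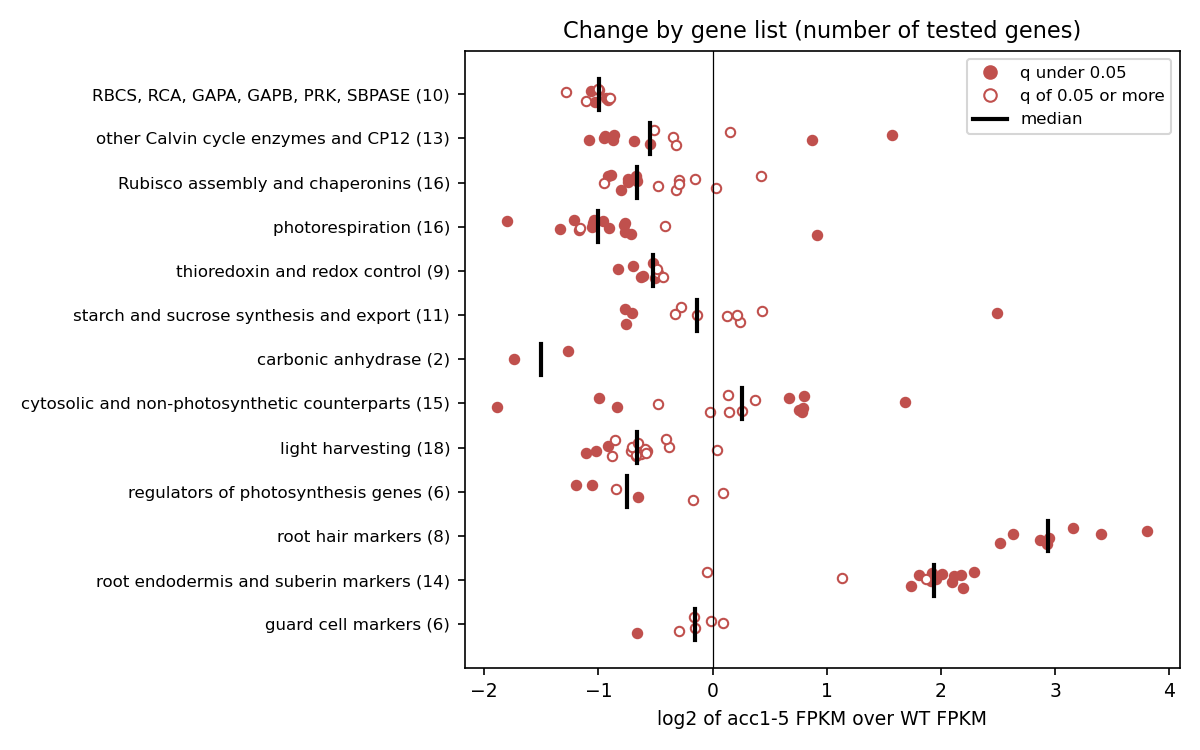
The log2 ratio of acc1-5 over WT for the tested genes of each list, 1 point per gene, filled where q was under 0.05, with a black bar at the list's median and the number of tested genes in brackets; points are spread vertically for clarity. The 10 Rubisco and Calvin cycle genes (top) have a median of -0.998 and photorespiration genes of -0.9999, while root hair markers have a median of 2.94.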

How the data were processed

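Bowtie, TopHat (version 1.4.0), Cufflinks (version 2.1.1), Cuffdiff (version 2.1.1) and the TAIR10 genome are named in the processing notes of the submitters. The authors deposited FPKM values with confidence bounds, 1 set per genotype. How the 3 libraries were combined, and at which confidence level, the labels and headers leave out. Further columns deposited by the authors hold the log2 fold change of acc1-5 over WT, a test statistic (a score, not used here), and a p-value and q-value per transcript. Columns named ACC1 were read as acc1-5.

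The log2 ratios were recomputed from the FPKM without a pseudocount (Python 3.11.15, pandas 2.3.3); 6 of 25307 tested transcripts, none in the lists, differed by more than 0.001 from the deposited log2 fold change. Adjusting the deposited p-values by the Benjamini-Hochberg method (SciPy 1.17.1, tested on simulated data) gave the deposited q-values. Low FPKM values were not whole multiples of a common step, so no count test was run. With 1 value per genotype, limma, planned for values of single libraries, was not run. The 10 genes and all lists were chosen with earlier results of these data known. Named genes are the 10, all of the cycle list and, in each other list, the 3 called genes of largest log2 ratio and the 2 of highest mean FPKM. Gene names are symbols or synonyms of the RefSeq table of TAIR10.1, with bare identifiers where it gives none. Coordinates are the tables' locus bounds on TAIR10, counted from 1; the planned search of promoters for motifs was not run and sequences were not used here.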

Additional observations from a re-analysis of the deposited data

How the results depend on the processing

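No paired analysis was possible because the tables hold 1 value per genotype, and for the same reason leaving out single libraries was not run. The median log2 ratio of the 10 genes was -0.98 with the median of all tested transcripts set to 0, -0.90 with equal sums of nuclear FPKM, -0.997 with a pseudocount of 1 FPKM, -0.998 with transcripts summed, and -1.01 without the 4 small subunit genes, a setting chosen after seeing the data. In each of these settings but the last, which leaves 6 genes, all 10 genes stayed lower in acc1-5, with log2 ratios from -1.29 to -0.80. The summed small subunit level had a log2 ratio of -0.98 with all or with main transcripts. Of the 10 genes, 3 were called with q under 0.01, and 0 had bounds apart. With q under 0.01, 5.70% of all tested genes were lower in acc1-5 and 7.71% higher. Calls lower in acc1-5 were 4 of 13 tested genes in the cycle list, and 6 of 16 in Rubisco assembly and in photorespiration. There were 3 of 9 in thioredoxin and redox control, 2 of 11 in starch and sucrose, and 1 of 2 in carbonic anhydrase. Light harvesting had 1 of 18, the regulators 3 of 6 and the counterparts outside the cycle 3 of 15. Guard cell markers had 0 of 6 (1 at an unadjusted p under 0.05 by the authors' Cuffdiff test), and the root lists 0. Calls higher in acc1-5 were 3 of the 15 counterparts, 2 in the cycle list, and 1 each in photorespiration and starch and sucrose. All 8 root hair markers and 11 of 14 endodermis markers were also called higher, and 0 in the other lists. Counting a gene where any of its transcripts was called left each list's count unchanged. Depth is unknown, so whether more reads would have narrowed the bounds of RBCS1A, RBCS3B and RCA cannot be told from these tables.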

Other observations

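Carbonic anhydrase, which speeds the exchange of carbon dioxide and bicarbonate in leaves, is encoded by CA1 and CA2 among others, and both genes fell, with log2 ratios of -1.74 and -1.27. CA1 fell to 346 FPKM in acc1-5 (156 to 536) against 1155.5 FPKM in WT (32.5 to 2384), with q = 0.0233 in the authors' deposited table. CA2 fell to 389 FPKM in acc1-5 (230.0 to 547) against 934 FPKM in WT (437 to 1430.1), with q = 0.00138 in the authors' deposited table. Whether these ratios differ from those of the 10 genes was not tested.

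Of 11 tested genes that carry the products of the cycle on to starch and sucrose, 3 fell, 1 rose and 7 were not called. Over all tested genes 9.04% were lower and 10.9% higher. The median log2 ratio of the 11 was -0.14. The triose phosphate exporter gene APE2 (AT5G46110) fell to 316 FPKM in acc1-5 against 533 FPKM in WT, and FBP, for the cytosolic fructose-bisphosphatase of sucrose synthesis, to 115 FPKM in acc1-5 against 196 FPKM in WT. GPT2, a sugar phosphate transporter gene of plastids, rose to 40.4 FPKM in acc1-5 (26.1 to 54.2) against 7.16 FPKM in WT (4.22 to 10.1), a log2 ratio of 2.50 with q = 0.000746 in the authors' deposited table. ADG1, for the small subunit of the starch enzyme ADP-glucose pyrophosphorylase, had 167 FPKM in acc1-5 and 184 FPKM in WT (q = 0.810 in the authors' deposited table). A further gene that fell, APL1, named after its values were seen, encodes a large subunit of that enzyme and had a log2 ratio of -0.71.

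Among 6 regulator genes of green tissue, 3 fell and 0 rose (4 lower and 0 higher at an unadjusted p under 0.05 by the authors' Cuffdiff test, beside 14.6% and 15.7% of all tested genes). The GATA factor genes GNC and CGA1 fell to 8.55 and 4.77 FPKM in acc1-5 against 19.6 and 9.92 FPKM in WT, and GLK2 to 33.3 FPKM in acc1-5 against 52.4 FPKM in WT. GLK1 had 43.1 FPKM in acc1-5 and 48.6 FPKM in WT (q = 0.674 in the authors' deposited table). Of 18 light-harvesting genes, 4 fell and 0 rose, with 9 lower and 0 higher at an unadjusted p under 0.05 by the authors' Cuffdiff test (14.6% and 15.7% of all tested genes). Of the 15 with a mean FPKM of at least 334, 2 were called lower, where 26.0% of all tested genes at that level were. LHCB2.3 fell to 74.5 FPKM in acc1-5 against 161 FPKM in WT, LHCB1.1 to 495 FPKM in acc1-5 against 1004 FPKM in WT and LHCB4.2 to 338 FPKM in acc1-5 against 637 FPKM in WT. The 2 most abundant of them, LHCB1.3 and LHCB1.5, had WT bounds with half-widths of 91.8% and 107% of the level and were not called. Of 6 guard cell markers 1 fell, where 9.04% of all tested genes did. It was FAMA, with 10.4 FPKM in acc1-5 and 16.5 FPKM in WT. OST1 had 13.5 FPKM in acc1-5 and 13.6 FPKM in WT, and the summed level of the 6 was 57.1 FPKM in acc1-5 and 65.4 FPKM in WT.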
